A study of Mus musculus with 115 samples.

Results

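The BCL2 family decides, at the outer mitochondrial membrane, whether a stressed cell commits to apoptosis. Its anti-apoptotic members bind and restrain the effectors BAX and BAK, which otherwise form pores that release cytochrome c and switch on the caspases, and the BH3-only members act upstream, binding the anti-apoptotic proteins or the effectors in response to DNA damage, loss of growth signals or oncogene activity. In prostate cancer the family is known for raised BCL2 in castration-resistant disease, and several of its BH3-only genes are targets of p53, a protein that the SV40 T antigen inactivates. Here 10 of its genes were described, of 45699 genes in the table. They were 3 anti-apoptotic genes (Bcl2, Bcl2l1 and Mcl1), the 2 effectors (Bax and Bak1) and 5 BH3-only genes (Bcl2l11, Bid, Bbc3, Pmaip1 and Bad). The members are named genes of the pathway, no threshold on their values was used to choose them, and each was read in every library and set against Mki67, a marker of dividing cells, and Chga, chromogranin A of neuroendocrine secretory granules.

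RNA-seq of prostate tissue was available from transgene-positive male (TRAMP x WSB/EiJ) F2 mice. The labels do not say that each library is a separate mouse, so p-values measure the spread between libraries. TRAMP mice express the SV40 T antigen under a minimal probasin promoter, which is active in prostate epithelium, and the F2 animals came from intercrossed F1 parents of C57BL/6 and WSB/EiJ ancestry and were kept to a set age or a humane endpoint. All libraries form 1 group: the labels give no age, tumor burden, histology, batch or control tissue. No comparison between conditions was therefore possible, and every relation below runs across libraries, which are not labelled as tumor or not. Where a prostate was small the RNA came from ventral prostate, and which libraries these were is not labelled. In such bulk tissue, fewer cells of a type and less RNA per cell cannot be told apart.

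The libraries fell into separate sets of 79 and 36 along the first principal component of log2(TPM + 1), where TPM is a transcript level corrected for length and scaled to the same total in every library. All correlations were therefore computed within each set and never over both, and the sets, being defined from the data, were not compared as groups. Their marker levels differed widely. The summed TPM of 8 prostate luminal genes had a median of 9808 (range 312 to 60851) in the 79 and 80.3 (39.3 to 2719) in the 36, where probasin, which is X-linked, had a median under 0.1 TPM. The summed TPM of 10 neuroendocrine genes had a median of 8.45 (1.39 to 55) in the 79, where Chgb, Insm1 and the X-linked Syp were under 0.1 TPM at the median, and of 306 (9.36 to 796) in the 36. The basal markers Krt5, Krt14, Krt15 and Trp63 were each under 0.1 TPM at the median in the 36. Seminal vesicle secretory genes reached a sum of 170786 TPM in the 79. The 20 genes with the largest share took between 51.6% and 81.8% of TPM in the 79. Genes on the X chromosome were low throughout, with a median of at least 1 TPM in 14.4% of 938 X-linked protein-coding genes against 55.3% of 20381 autosomal ones, and none of the 10 members is X-linked.

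The members lie on separate loci, given here on GRCm38. The anti-apoptotic genes are Bcl2 (ENSMUSG00000057329, chr1:106538178-106714274, minus strand), Bcl2l1, which encodes BCL-XL (chr2:152780668-152831728, minus), and Mcl1 (chr3:95658788-95663176, plus). The effectors are Bax (chr7:45461697-45466898, minus) and Bak1 (chr17:27019810-27029009, minus). The BH3-only genes are Bcl2l11, which encodes BIM (chr2:128126038-128162547, plus), Bid (chr6:120891930-120916853, minus), Bbc3, which encodes PUMA (chr7:16308393-16318205, plus), Bad (chr19:6941861-6951899, plus) and Pmaip1, which encodes NOXA and is not shown by position. No member had a near-identical copy elsewhere among annotated transcripts (95% identity over 80% of the length). The library kit was not described as stranded, so reads over shared exon bases cannot be assigned by strand. Bid shares 628 exon bases with Bcl2l13, Bcl2 shares 558 with D630008O14Rik, Bad shares 524 with Gpr137, Bax shares 192 with Gm45808 and Bak1 shares exon bases with Ggnbp1.

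The promoters of 3 members are shown because these genes stand at the ends of the patterns that follow in the 79 libraries. There, in TPM as deposited, Bcl2 had the highest r with stromal genes and Bax and Bak1 with Mki67. Each run is on the gene's strand, 250 bases before to 50 after the RefSeq start on GRCm38.p6, with capitals marking the GC box letters GGGCGGG on either strand, the sequence that SP1-type factors bind.
Bcl2 (chr1:106714241-106714540, minus): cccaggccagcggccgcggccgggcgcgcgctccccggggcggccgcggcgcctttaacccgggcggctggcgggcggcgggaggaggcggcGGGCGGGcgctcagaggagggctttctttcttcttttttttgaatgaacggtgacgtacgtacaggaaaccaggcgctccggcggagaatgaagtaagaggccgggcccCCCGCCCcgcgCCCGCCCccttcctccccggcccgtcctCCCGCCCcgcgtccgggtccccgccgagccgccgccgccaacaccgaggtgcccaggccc
Bax (chr7:45466849-45467148, minus): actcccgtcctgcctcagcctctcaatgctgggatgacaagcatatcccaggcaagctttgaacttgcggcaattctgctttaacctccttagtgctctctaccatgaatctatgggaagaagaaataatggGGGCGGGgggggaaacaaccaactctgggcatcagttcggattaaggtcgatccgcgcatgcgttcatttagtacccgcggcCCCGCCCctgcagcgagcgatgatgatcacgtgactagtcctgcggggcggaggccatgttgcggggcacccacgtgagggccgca
Bak1 (chr17:27028578-27028877, minus): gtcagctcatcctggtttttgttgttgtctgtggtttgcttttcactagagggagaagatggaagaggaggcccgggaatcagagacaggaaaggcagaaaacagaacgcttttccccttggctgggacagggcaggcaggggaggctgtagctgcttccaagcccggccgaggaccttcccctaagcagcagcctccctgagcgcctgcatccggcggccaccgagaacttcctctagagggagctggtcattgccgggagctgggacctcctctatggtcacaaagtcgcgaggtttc
The Bcl2 window held 4 GC boxes and 76% G and C, the Bax window held 2 with 57.3%, and the Bak1 window held none with 58.3%, against a median of 52.7% over all RefSeq windows of that length. The GC box was found in 9 of the 15 windows of the 9 members with one, and in 25.6% of 32851 windows genome-wide. The CCAAT box was found in Bad, Bbc3 and Bcl2l11 (37.4% of all windows), the E-box CACGTG in Bax and Bbc3 (7.15%), and the E2F letters TTTCGCGC or TTTGGCGC in Bcl2l1 (0.813%). These matches are letters in a window, not measured binding.

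Mcl1, an anti-apoptotic gene, had the highest median of the 10 members over all libraries, but not within the 36, where the median of Bax was 23.1 TPM and that of Mcl1 18.2. Its level was 10.91 TPM in the lowest library, 24 at the median and 64.47 in the highest (26.5 ± 11.1, mean ± SD over all libraries of both sets, as for every level here). Bcl2l1 ranged from 6.30 through 13.33 to 45.39 TPM (15.8 ± 7.84), with the highest value in W4125. Bcl2, the founding member, was far lower, at 0.47, 2.23 and 10.54 TPM (2.51 ± 1.75). Mcl1 was above Bcl2l1 in all but 2 libraries, with a median ratio of 1.75 and a range of 0.804 (W4125) to 2.88. Of the 3, Mcl1 and Bcl2l1 held most of the level: their median shares of the 10 members' summed TPM were 28.3% and 15.4%, and that of Bcl2 was 2.33%. Another anti-apoptotic gene, Bcl2l2, which is not among the 10, had a median of 18.72 TPM.

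The effectors differed from each other. Bax was 6.69 TPM in the lowest library, 15.89 at the median and 56.75 in the highest (17.8 ± 8.06). Bak1 was 1.07, 3.86 and 26.85 TPM (4.85 ± 3.81). Bax was higher than Bak1 in every library, since the lowest ratio was 1.68, the median was 3.98 and the highest was 21.2, in W370, which also had the lowest Bak1.

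The BH3-only genes covered the widest range of levels. Bad, a sensitizer regulated by growth-factor signalling, was the most abundant at 3.73, 15.44 and 24 TPM (14.1 ± 5.34). Bcl2l11 followed at 1.97, 4.99 and 15.88 TPM (5.48 ± 2.70), then Bid, which caspase-8 cleaves to link death receptors to mitochondria, at 0.84, 3.54 and 12.37 TPM (3.69 ± 1.51). The lowest medians of the BH3-only genes were those of 2 others: Bbc3 was 0.50, 2.10 and 6.94 TPM (2.28 ± 1.14), and Pmaip1 was 0.05, 0.52 and 11.21 TPM (0.822 ± 1.39). Pmaip1 reached 1 TPM in 26 libraries and 0.1 TPM in all but 3, and no member was listed at 0 in any library. In at least 50% of libraries 9 of the 10 members reached 1 TPM, and 6 reached it in every library.

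**Figure D1:**
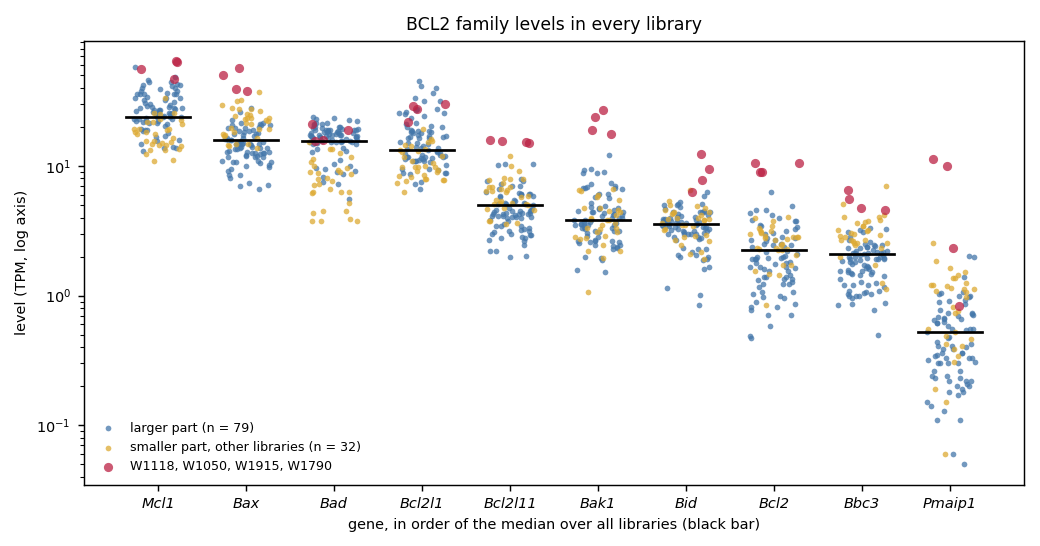
Level of each member in each library (TPM, log axis), 1 point per library coloured by set, with W1118, W1050, W1915 and W1790 in red and a black bar at the median. Mcl1 has the highest median (24 TPM) and Pmaip1 the lowest (0.52 TPM), and the red points are the 4 highest libraries for Bcl2, Bcl2l11, Bax and Bak1.

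The order of the medians was Mcl1, Bax, Bad, Bcl2l1, Bcl2l11, Bak1, Bid, Bcl2, Bbc3 and Pmaip1. Only 2 steps between neighbours exceeded the spread of the within-library log2 ratio. Bcl2l1 was above Bcl2l11 by a mean log2 ratio of 1.52 ± 0.617 (SD) and in all but 2 libraries, and Bbc3 was above Pmaip1 by 1.99 ± 1.16 and in all but 4. The other 7 steps were within their spread. Mcl1 exceeded Bax by 0.58 ± 0.648 and in 89 libraries, while Bax and Bad had close medians over all libraries but a different order in each set. Bad was above Bax in 63 of the 79 libraries, with a median ratio of 1.15, and in 0 of the 36, with a median ratio of 0.367. Bid and Bcl2 differed by 0.71 ± 0.923, and Bcl2 and Bbc3 by 0.04 ± 0.884. By these neighbour steps over all libraries the family formed an upper tier of 4 genes, a lower tier of 5 and Pmaip1 below both. The steps were not read within each set. The medians of Bad and Bcl2l11 were 17.04 and 4.3 TPM in the 79 but 8.3 and 6.44 TPM in the 36.

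On the log2(TPM + 1) scale, which shrinks the spread of low genes such as Pmaip1, every member varied less than the median gene tested. The SD of log2(TPM + 1) over all libraries ran from 0.422 for Bid to 0.628 for Bak1, and 0 of 10 exceeded the median of all genes tested, 0.634. This is a description of all libraries together, with the 79 and the 36 combined. Pmaip1 had the largest ratio of the 90th to the 10th percentile of TPM, at 7.42, and Bid the smallest, at 2.41, where the median gene tested had 3.98.

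The balance between the arms of the family was read from sums within a library. The 3 anti-apoptotic genes together held 31.8% to 62.6% of the 10 members' TPM, with a median of 46.3% (47.1 ± 7.12). The 2 effectors held 13% to 43.4% (median 21.6%) and the 5 BH3-only genes 17.7% to 38.5% (median 29%). The anti-apoptotic sum was above the effector sum in all but 8 libraries, with a median ratio of 2.18. That ratio was lowest in W4120, at 0.747, where Bax was 32.22 TPM against 18.18 for Mcl1, and highest in W4379, at 4.81. The ratio of Bax to Bcl2, often quoted as an index of apoptotic readiness, was 2, 7.73 and 26.6 (lowest, median and highest), and the highest was again W370. Bax exceeded Mcl1 in 0 of the 79 libraries and in 26 of the 36, and Bcl2l1 in 39 of the 79 and 35 of the 36. The anti-apoptotic sum was above the effector sum in every one of the 79 (lowest ratio 1.61) and in 28 of the 36. Within the 79 the median shares were 49.5% anti-apoptotic and 20.2% effector, and within the 36 they were 40.5% and 32.4%. These are descriptions of each set, and the sets were not tested against each other. These ratios are of transcripts and do not measure protein, which for MCL1 and some of the BH3-only members turns over quickly.

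Across the 79 libraries, most members were higher where Mki67 was higher. In TPM as deposited the effectors had the highest r. Mki67 ran from 0.39 to 144.47 TPM over all libraries, with a median of 7.89. Pearson's r between log2 levels was 0.777 for Bak1 and 0.751 for Bax, and Spearman's rho was 0.793 and 0.748. All of these had a permutation p of 1e-05, the smallest that 100000 permutations can give, and an adjusted p of 2.3e-05 over all genes tested. Per doubling of Mki67 + 1, Bak1 + 1 was higher by 0.38 ± 0.0353 (slope ± SE, log2) and Bax + 1 by 0.30 ± 0.0297. Bcl2l1 (r = 0.711, rho = 0.726), Bcl2l11 (0.690, 0.705) and Mcl1 (0.667, 0.668) followed with the same permutation p and adjusted p. Their slopes were 0.40 ± 0.045, 0.29 ± 0.0342 and 0.30 ± 0.0376 in the same order. With the 2 libraries of most extreme Mki67 left out, r was 0.744 for Bak1, 0.728 for Bax, 0.684 for Bcl2l1, 0.662 for Bcl2l11 and 0.655 for Mcl1.

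Bbc3 and Bcl2 were more weakly related to Mki67 in these 79 libraries. For Bbc3 Pearson's r was 0.385, with a permutation p of 0.00052 that became 0.000901 on adjustment, and rho was 0.321 (permutation p = 0.00412). For Bcl2 r was 0.287, with a permutation p of 0.0105 that became 0.0152, and rho was 0.319 (permutation p = 0.00461). Leaving out the 2 extreme libraries gave r = 0.357 for Bbc3 and 0.257 for Bcl2, and Bcl2 turned to -0.12 after median-of-ratios scaling, which divides each library by the median ratio of its genes to their geometric mean over libraries. Bid was not called, since its r of 0.229 had a permutation p of 0.0426 and 0.0569 after adjustment, and its rho was 0.143 (permutation p = 0.209). Pmaip1 had a mean under the 1 TPM needed for the fit, and in the fit with a minimum mean of 0.1 TPM its r of 0.647 and rho of 0.669 had an adjusted p of 3.26e-05, where 56.1% of genes were positive. Bad fell into separate clusters of 67 and 12 libraries by its own level. Within the 67 its r was 0.280, with a permutation p of 0.0219 and 0.0328 after adjustment, where 66.7% of genes were positive and 3.15% negative. Its rho there was 0.271 (permutation p = 0.0275), and r fell to 0.229 with the 2 extreme libraries left out. The direction turned with the scaling, to -0.224 without the 20 genes of largest share and -0.359 after median-of-ratios scaling. Within the 12 it had r = 0.118 and rho = 0.245 (permutation p = 0.726 and 0.441, adjusted p = 0.935), where 0.72% of genes were positive and 0.0206% negative. In the consecutively named libraries W5000 to W5005, Bad ran from 5.53 to 10.26 TPM and Mki67 from 0.39 to 0.93 TPM. The part of these libraries in the relations with Mki67 was not tested.

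These values stand against a high background, since 72.9% of the 14621 genes tested were also positively correlated with Mki67 in the 79 libraries and 1.4% negatively. Of the 9 members tested, 8 were positive and 0 negative by the permutation test when Bad was counted over all 79. By limma and by Spearman's rho 8 were positive and 0 negative, and 9 were positive and 0 negative at an unadjusted p under 0.05. The median r was 0.667 over the 9 and 0.433 over all genes tested. Bak1 had a higher r than 94.9% of genes, Bax than 93.4% and Bcl2l1 than 90.6%. The share of TPM held by the top 20 genes moved with Mki67 (r = -0.628, rho = -0.625, both permutation p = 1e-05), so the other genes held more of the TPM total in libraries with more Mki67. The values were therefore also read under other scalings. After median-of-ratios scaling the median r over all genes was -0.02, 22.1% of genes were positive and 20% negative, and 5 of 9 members stayed positive: Bak1 (r = 0.611), Bcl2l1 (0.488), Bax (0.409), Bcl2l11 (0.394) and Mcl1 (0.375). With the top 20 genes taken out of the total, 33.5% of genes were positive, 8.22% were negative and the same 5 members were positive, from 0.460 for Bcl2l11 to 0.666 for Bak1. Bcl2, Bid and Bbc3 had an adjusted p above 0.05 under both. Pmaip1, which is not among the 9, had r = 0.506 after median-of-ratios scaling and 0.544 without the top 20 genes. After median-of-ratios scaling the r of Bax was thus below those of Bcl2l1 and Pmaip1.

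**Figure D2:**
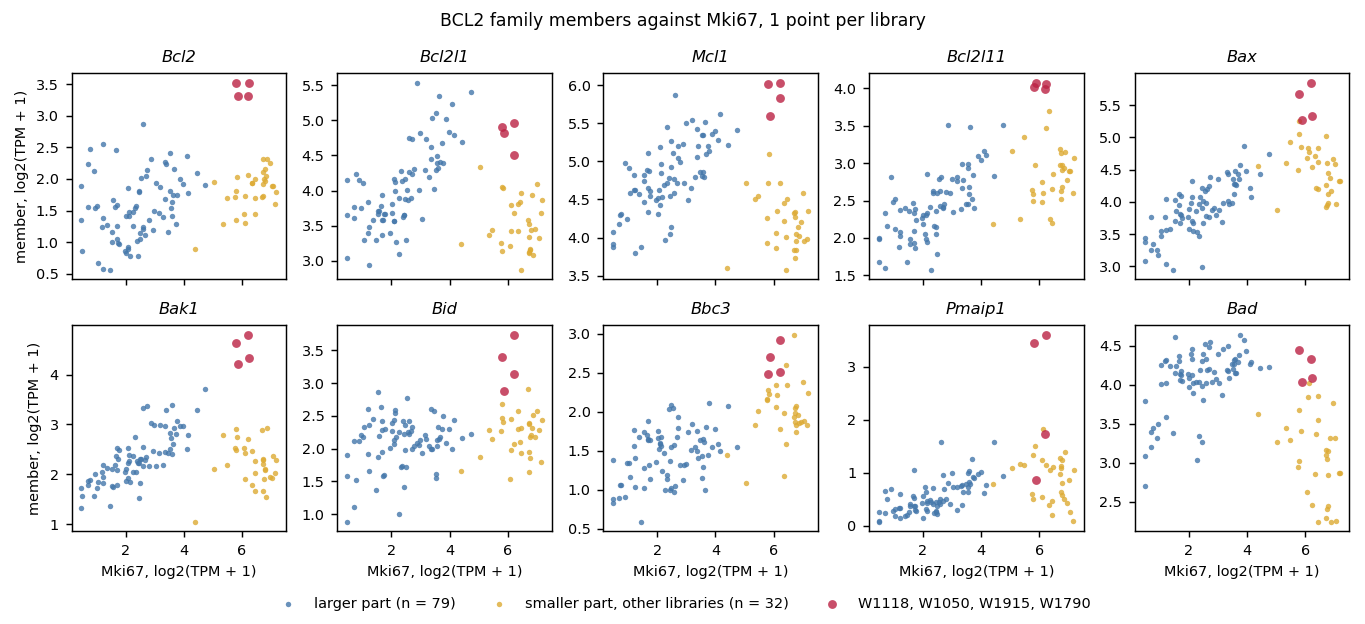
Level of each member against Mki67, both as log2(TPM + 1), 1 point per library, coloured by set with the 4 libraries W1118, W1050, W1915 and W1790 in red. In the 79 libraries the points of Bak1 (r = 0.777) and Bax (r = 0.751) rise with Mki67, and in the 36 no member has an r with Mki67 above 0.154.

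In the 36 libraries no member was positive with Mki67, but the direction depended on the measure of proliferation. The 9 tested had r between -0.394 and 0.154 with a median of -0.124, and 0 were positive at an unadjusted permutation p under 0.05. After adjustment 0 were positive too, where 23.3% of genes were positive and 20.8% negative. Spearman's rho and limma also gave 0 positive members. Bad was the 1 member called, with a negative r of -0.394, a permutation p of 0.0169 and 0.0404 after adjustment, and a rho of -0.417 (permutation p = 0.0118). Bad's r was -0.425 with the 2 libraries of most extreme Mki67 left out, and 4 members were then negative, where 31.4% of genes were. In the 32 libraries that remain without the 4 described next, Bad was not called (r = -0.378, adjusted permutation p = 0.0648). Bcl2 was the 1 positive member in those 32, with r = 0.582, a permutation p of 0.00072 and 0.00319 after adjustment, where 25.2% of genes were positive and 20.6% negative. Its rho there was 0.460 (permutation p = 0.00889), and r was 0.503 with the 2 extreme libraries left out, 0.668 without the 20 genes of largest share and 0.521 after median-of-ratios scaling. In the 36, Bax had r = -0.330 (permutation p = 0.0479, adjusted p = 0.0921), and its rho of -0.479 passed (permutation p = 0.00366, adjusted p = 0.0104), where 27% of genes were negative by rank. In the same libraries all 8 immune genes tested and 6 of 8 stromal genes were negative with Mki67 itself, and their part in the values of Bad and Bax was not tested. With an index of 10 proliferation genes in place of Mki67, 4 members were positive and 0 negative in the 36, where 26.9% of genes were positive and 1.81% negative. They were Bbc3 (r = 0.770, adjusted permutation p = 0.000222), Bax (0.562, 0.00382), Bid (0.550, 0.00515) and Bak1 (0.447, 0.0302), and Bad turned to 0.320 (adjusted permutation p = 0.143). Mki67 itself had r = 0.439 with that index, which includes it. Without the 4 libraries described next, r with the index was 0.762 for Bbc3, 0.479 for Bax, 0.421 for Bid and 0.250 for Bak1. Bcl2, the member positive with Mki67 in those 32, had r = 0.069 and rho = -0.092 with the index there. Bbc3 kept r = 0.643 and 0.691 in the 36 without the 20 genes of largest share and after median-of-ratios scaling, where Bak1 had 0.0405 and 0.126. Whether the relation with Mki67 differs between the 79 and the 36 was not tested either.

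W1118, W1050, W1915 and W1790 stood apart from the other 32 libraries of the smaller set and carried some of the highest levels of the family. They were singled out after their values were seen, as the libraries with the lowest Chga there (0.15, 1.15, 1.23 and 2.55 TPM). Bcl2 was 8.96, 10.54, 10.46 and 8.97 TPM in them, and its highest value in all other libraries was 6.34 (W4548), with a median of 2.16. Bak1 was 17.61, 23.8, 18.99 and 26.85 TPM, above the 12.16 of the next library (W4181). Bcl2l11 was 15.88, 15.25, 15.63 and 14.93 TPM, above the 11.96 of W992. Bax was 37.81, 50.26, 39.14 and 56.75 TPM, and the next library, W899, had 37.37. So in all 4 an anti-apoptotic gene, both effectors and BIM were together at the top of all libraries.

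The remaining members were not all extreme in those 4 libraries. Mcl1 was 47.16, 63.53, 56.17 and 64.47 TPM, at places 6, 2, 4 and 1 of all libraries. Bid was 6.34, 9.51, 12.37 and 7.82 TPM, at places 5, 2, 1 and 3. Pmaip1 was 9.92 TPM in W1050 and 11.21 in W1915, the highest of all, but 0.83 in W1118 and 2.33 in W1790. Bcl2l1 (21.77 to 30 TPM) lay between places 8 and 20, and Bad (15.44 to 20.88 TPM) between places 10 and 58. Their anti-apoptotic share, 42.8% to 45.6%, and their effector share, 28.2% to 35.2%, lay within the ranges of the other 32 libraries of the smaller set (31.8% to 55.1% and 19.9% to 43.4%). The same 4 libraries had Krt8 of 369 to 631 TPM and Mki67 of 54.67 to 74.05 TPM, and their stromal sums were 526 to 1908 TPM against 2.93 to 835 in the other 32. Their summed neuroendocrine genes were 9.36 to 41.3 TPM against 203 to 796, and the part of these differences in the members' levels was not tested. Their top 20 genes held 48.9% to 54.5% of TPM against 57.5% to 75.3% in the other 32. After median-of-ratios scaling the 4 still held the top 4 places for Bcl2, Bcl2l11 and Bak1, and 2 of the top 4 for Bax. With the top 20 genes taken out of the total they held all 4 for Bak1, 3 for Bcl2 and for Bcl2l11, and 2 for Bax.

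The relation of the members to Chga turned on those 4 libraries. Chga ran from 0.06 to 479.05 TPM over all libraries, with a median of 0.57. Among the 32 without the 4, 1 of 9 members was positive and 0 negative after adjustment, where 9.36% of genes were positive and 0.157% negative. That member was Bax, with r = 0.539 (permutation p = 0.0013, adjusted p = 0.0266), rho = 0.659 (permutation p = 8e-05) and r = 0.744 with the 2 libraries of most extreme Chga left out. No member was negative there at an unadjusted p under 0.05, and Bid had r = 0.400 (permutation p = 0.0235, adjusted p = 0.120). Bcl2 had r = -0.141 and Bak1 r = -0.00206. The share of the top 20 genes moved with Chga in these 32 (r = -0.480, permutation p = 0.00556, rho = -0.587, permutation p = 0.00048), and the r of Bax with Chga was 0.391 with the top 20 genes taken out of the total and 0.417 after median-of-ratios scaling.

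With the 4 included, 7 of 9 members were negative with Chga and 0 positive, where 23.7% of genes were negative and 9.76% positive. The members were Bcl2 (r = -0.765, adjusted p = 0.000457), Bak1 (-0.729), Mcl1 (-0.632), Bcl2l11 (-0.620), Bcl2l1 (-0.602), Bid (-0.482) and Bbc3 (-0.449). By rank, which gives the 4 libraries no more weight than their order, rho ran from -0.426 for Bcl2 (permutation p = 0.0102, adjusted p = 0.181) to 0.167 for Bax. None was called by rank, where 0.103% of genes were negative. The negative relation in the 36 thus rests on the 4 libraries, which are too few to count as a cluster under the rule used here.

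In the 79 libraries, Chga itself fell into clusters of 72 and 7. Within the 72, r of the members with Chga ran from 0.02 to 0.21, and 0 of 9 were called by the permutation test, by limma or by Spearman's rho. None passed at an unadjusted permutation p under 0.05 either. After adjustment of the permutation test 1.11% of all genes were positive and 0% negative. Within the 7, r ran from -0.20 to 0.51, and 0 members had an unadjusted permutation p under 0.05. After adjustment 0 members and 0% of all genes were called. So few libraries leave little room for any gene to pass adjustment, and no conclusion is drawn from this.

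**Figure D3:**
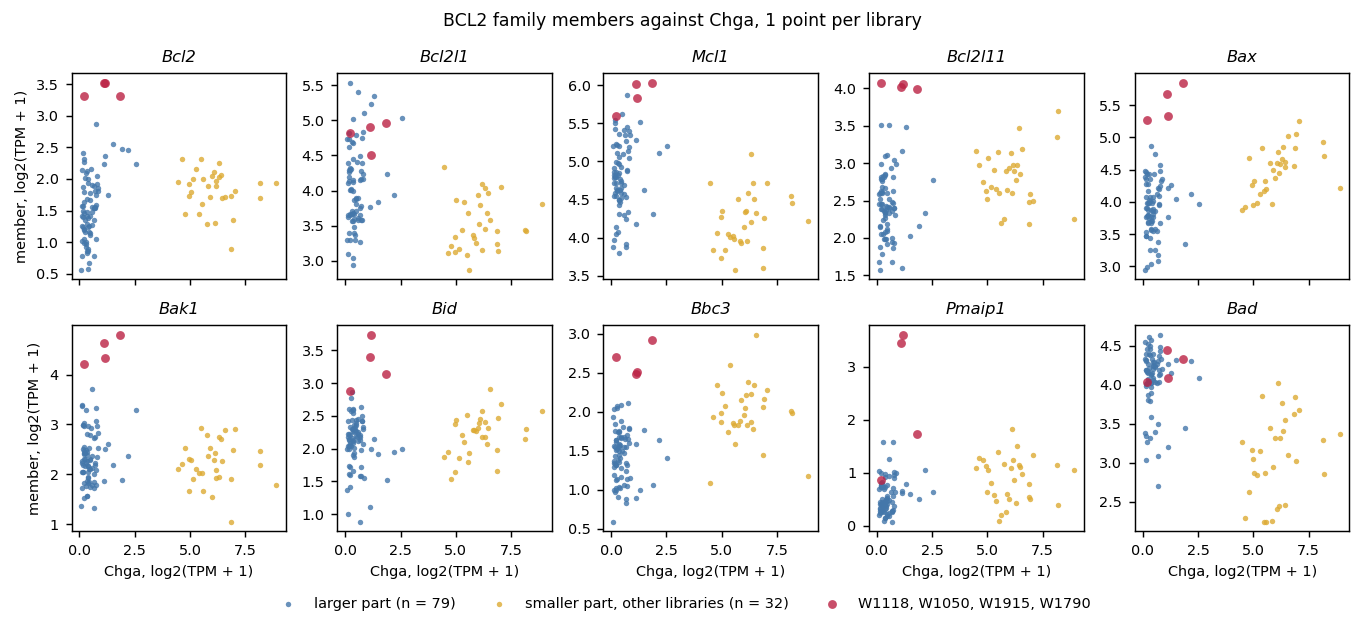
Level of each member against Chga, both as log2(TPM + 1), 1 point per library, coloured by set with W1118, W1050, W1915 and W1790 in red. The 4 red points lie at low Chga (0.15 to 2.55 TPM) and high Bcl2 (8.96 to 10.54 TPM), away from the other 32 libraries of the smaller set.

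The members also varied with each other. In the 79 libraries, the 36 pairs of the 9 members other than Bad had a median r of 0.538, ranging from -0.135 to 0.854, with 35 positive. The closest pair was Bcl2l1 and Bcl2l11, an inhibitor and the BH3-only protein it binds, with r = 0.854, rho = 0.840 and an adjusted permutation p of 1.67e-05. That pair had r = 0.827 with the 2 most extreme libraries left out. The 2 effectors, Bax and Bak1, had r = 0.783, rho = 0.789 and an adjusted permutation p of 1.77e-05, or r = 0.769 with the 2 most extreme left out. Mcl1 varied with Bcl2l1 (r = 0.787), Bcl2l11 (0.778) and Bax (0.777). For each of these genes most of the transcriptome did the same, as 85% of genes were positive with Bcl2l1, 80% with Bax, 88.7% with Mcl1 and 57.9% with Bid.

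Scaling moved the pairs a great deal, and only some of those that stayed are named here. Among others that stayed positive after median-of-ratios scaling and without the top 20 genes were Mcl1 and Bak1 (0.416 and 0.538) and Bcl2l1 and Bak1 (0.393 and 0.556). After median-of-ratios scaling the median pair had r = 0.033 and 20 of 36 were positive, and with the top 20 genes taken out the median was 0.226 and 25 were positive. Bcl2l1 and Bcl2l11 kept r = 0.533 and 0.731 under these scalings, Bak1 and Pmaip1 0.520 and 0.628 (0.751 as deposited), and Bax and Bak1 0.487 and 0.550. Bid and Bbc3, both BH3-only, kept 0.538 and 0.443 (0.591 as deposited, rho 0.513). Bcl2 and Bid went the other way at every scaling, at -0.135 as deposited (rho = -0.201, adjusted permutation p = 0.268), -0.470 without the top 20 genes and -0.714 after median-of-ratios scaling. Bcl2l1 and Bid had r = 0.106, -0.317 and -0.595 at the same scalings.

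In the 36 libraries all 45 pairs were positive, with a median r of 0.650, but without W1118, W1050, W1915 and W1790 the median was 0.214 and 38 of 45 were positive. Among those 32, the pair Bcl2l1 and Mcl1 was the closest, at r = 0.716 (rho = 0.737, adjusted permutation p = 0.00164, r = 0.674 with the 2 most extreme left out), where 39.3% of genes were positive with Mcl1 and 29% with Bax. Bax and Bbc3 had r = 0.579 (rho = 0.603, adjusted permutation p = 0.00258), and Mcl1 and Bak1 r = 0.569 (rho = 0.506, adjusted permutation p = 0.00418). Bcl2 and Bad had the lowest, -0.465 (rho = -0.431, adjusted permutation p = 0.0452), where 4.53% of genes were negative with Bcl2. Bcl2l1 and Mcl1 kept r = 0.529 after median-of-ratios scaling.

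**Figure D4:**
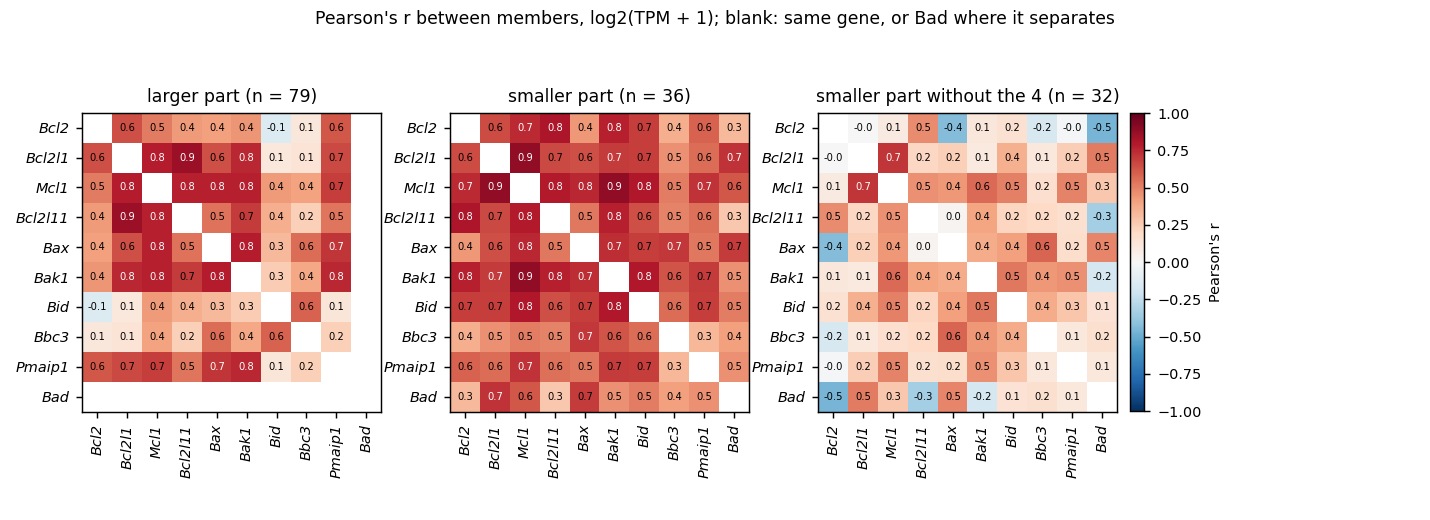
Pearson's r between log2(TPM + 1) of each pair of members, as coloured squares, in the 79 libraries, in the 36, and in the 36 without W1118, W1050, W1915 and W1790 (n = 32). Bad is blank in the 79, where it falls into 2 clusters, and the squares of the 36 are redder than those of the 32 (median r 0.650 and 0.214).

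The genes most like each member in the 79 libraries were found among all protein-coding genes tested. Mcl1 was most like Fbxo4 and Tor1aip2 (r = 0.943 each), and Tor1aip2 also had r = 0.934 with Mcl1 in the 36 and 0.799 in the 32. Bax was most like Snrpb, a core splicing protein (r = 0.922, and 0.913 in the 36 and 0.878 in the 32), and Sae1, of the SUMO-activating enzyme (0.912). Bcl2l1 was most like Kdm2b and Pml (0.943 each), but Kdm2b had r = 0.057 with it in the 36. Bcl2 was most like Pear1 (0.927) and Dock6 (0.923), and Pear1 had r = 0.460 with it in the 36 and -0.018 in the 32. Bak1 was most like Nfkb2, an NF-kB subunit (0.863), and Arpc1b (0.857). Bcl2l11 was most like Sh3rf1 (0.925) and Etv6 (0.919), Bid like Gusb (0.858) and Farsb (0.844), and Bbc3 like Pacsin2 (0.790) and Pex14 (0.778). Pmaip1 was most like Ifitm3 (0.873), an interferon-induced gene. Bad, in the 67 libraries, was most like 2310011J03Rik (0.851) and Nelfb (0.839). These are correlations across libraries chosen for being the highest, so they carry no test.

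Of the 9 members tested, Bcl2 had the highest r with stromal and endothelial genes in the 79 libraries. Against an index of 8 stroma and smooth muscle genes, Bcl2 had r = 0.780 (rho = 0.754, both permutation p = 1e-05, adjusted p = 2.21e-05) and r = 0.743 with the 2 most extreme libraries left out. That was higher than for 96.5% of genes, where 83.4% of genes were positive and the median r was 0.465. Bcl2 kept r = 0.697 without the top 20 genes and 0.60 after median-of-ratios scaling. Against 4 endothelial genes it had r = 0.689 (rho = 0.675) and 0.531 after median-of-ratios scaling, where 78.4% of genes were positive as deposited with a median r of 0.421. For Mcl1 the stromal r of 0.583 went to -0.148 after median-of-ratios scaling. In the 36 and the 32 libraries Bcl2 had r = 0.223 and -0.264 with the stromal index.

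Several members moved with immune genes in the 79 libraries, with the highest r for Mcl1 and Bak1 in TPM as deposited. The index of 12 immune genes had r = 0.737 with Mcl1, 0.711 with Bak1, 0.677 with Bax, 0.640 with Bcl2 and 0.615 with Bcl2l1. Among all genes tested 83.8% were positive and the median r was 0.524. Bid had 0.235. After median-of-ratios scaling r was 0.304 for Mcl1, 0.409 for Bak1, 0.196 for Bax, 0.313 for Bcl2 and 0.134 for Bcl2l1. Mcl1 also moved with the immune index in the 36 (r = 0.587, rho = 0.606, permutation p = 0.00021 and 0.00015, adjusted p = 0.0017) and in the 32 (r = 0.536, permutation p = 0.00152, adjusted p = 0.0123), where 31.1% and 16.6% of genes were positive. In the 32 the r of Mcl1 was 0.697 after median-of-ratios scaling. Bak1 had r = 0.495 with the immune index in the 36 (adjusted permutation p = 0.00693) and was not called in the 32 (r = 0.351, adjusted permutation p = 0.124). In the 32 Mcl1 also had r = 0.538 with the endothelial genes and 0.539 with the prostate luminal genes, where the median r of all genes was 0.144 and 0.0534. Mcl1 had r = 0.639 and 0.626 with the stromal index in the 36 and the 32, where 37.6% and 22.1% of genes were positive. The summed immune level ran from 41.5 to 1798 TPM in the 79 and from 23.1 to 1029 in the 36, and how much of each member's level came from immune, stromal or tumor cells was not tested.

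**Figure D5:**
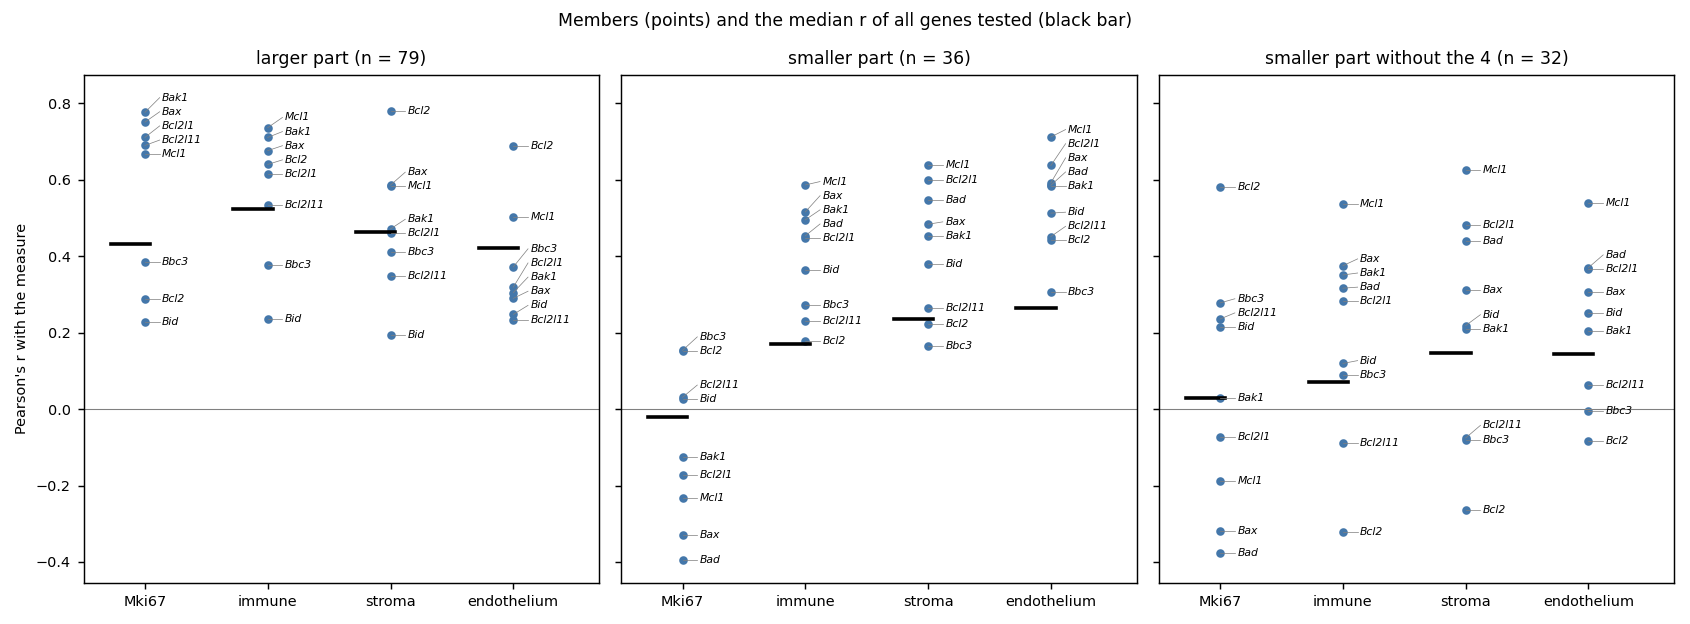
Pearson's r of each member with Mki67 and with the immune, stroma and endothelium indices, in the 79 libraries, the 36 and the 32 without W1118, W1050, W1915 and W1790, with a black bar at the median r of all genes tested. Bcl2 has the highest stromal r in the 79 (0.780, bar at 0.465), and Bad is left out there.

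The other genes of the pathway were counted from lists. Of 17 other BCL2 family genes, 13 were tested, and 11 of them were positive with Mki67 in the 79 libraries and 0 negative (72.9% of all genes positive). In the 36, 2 of 13 were positive (Bok and Bcl2l13) and 5 negative, where 23.3% of all genes were positive and 20.8% negative. The effector-like gene Bok had r = 0.591 in the 79 and 0.463 in the 36, and Bcl2l13 0.585 and 0.535, though Bcl2l13 shares exon bases with Bid. Bik, a BH3-only gene, had r = 0.717 in the 79 and -0.659 in the 36, and Bcl2a1b, an anti-apoptotic gene of blood cells, 0.702 and -0.439. Bcl2l14 had r = 0.009 and -0.602. By level the highest were the mitophagy receptors Bnip3l and Bnip3 (medians 34.21 and 28.62 TPM), then Bnip2 (25.93), Bcl2l2 (18.72), an anti-apoptotic gene at a level above Bcl2l1, and Bcl2l14 (18.49). Bok (11.67), Bnip1 (10.72), Bmf (8.60), Bik (5.66), Bcl2l13 (4.52), Bcl2l12 (3.53) and Bcl2a1b (2.86) followed. Bcl2l10 (0.05 TPM) and Hrk (0.01 TPM) were close to 0 at the median over all libraries, with highest values of 0.42 and 3.03 TPM. In the 36, Bcl2l10 was under 0.1 TPM at the median and Hrk was not.

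The genes downstream and upstream of the family were counted in the same way, against the same 72.9% of all genes positive in the 79, and 23.3% positive and 20.8% negative in the 36. Among 16 caspase and apoptosome genes, 14 were positive in the 79 libraries, and in the 36, 3 were positive and 4 negative. Casp2 (r = 0.839 in the 79 and 0.626 in the 36), Apaf1, the scaffold that cytochrome c activates (0.823 and 0.391), and Dffb, the nuclease that cuts DNA in dying cells (0.603 and 0.501), were the 3 positive in both. Of 7 inhibitors of apoptosis tested, 6 were positive in the 79, and in the 36, 2 were positive and 3 negative. The X-linked Xiap, which blocks caspases directly, had r = 0.424 and 0.745. All 6 death receptor genes tested were positive in the 79, and 0 were positive and 3 negative in the 36. Of 12 p53 pathway genes, 10 were positive in the 79, and 2 were positive and 2 negative in the 36. Mdm4, an inhibitor of p53, had r = 0.461 and 0.773. With Chga in the 36 libraries, negative calls numbered 7 of 13 for the other BCL2 family genes, 4 of 16 for caspases, 3 of 7 for inhibitors of apoptosis, 2 of 6 for death receptors and 5 of 12 for p53 genes, where 23.7% of all genes were negative. Without W1118, W1050, W1915 and W1790 each of these 5 lists had 0 negative genes after adjustment, where 0.157% of all genes were negative. Positive calls there numbered 2 of 13, 3 of 16, 0 of 7, 1 of 6 and 1 of 12 in the same order, where 9.36% of all genes were positive.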

How the data were processed

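Total RNA from prostates of the F2 mice was depleted of ribosomal RNA and sequenced on an Illumina instrument. According to the submitters' notes and the study's methods, the authors used CASAVA 1.8.2 and Trimmomatic, built an allele-specific C57BL/6 and WSB/EiJ transcriptome with Seqnature (GRCm38), aligned reads with Bowtie2 2.2.5 and estimated expression with RSEM 1.2.20. The annotation release is not given in the sources used here. The deposited values are TPM per gene, made by the authors, and sum to the same total in each library. The study's methods state a minimum number of read pairs, but the depth of each library is unknown. Count tests and counting intervals were therefore not possible, and the few genes with the largest share affect all others. The labels do not say which values share a batch. The study's text describes fewer RNA-seq mice than the table holds, and all columns were used because each matched a labelled library.

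Levels were analysed as log2(TPM + 1). Genes averaging 1 TPM or more over all libraries entered each fit, also in a set where they were low. Fold or slope values on this scale understate changes of low genes. Libraries were divided by a mixture of 2 normals on the first principal component (48.7% of the variance of 14623 genes, fall in BIC 196, Ashman D 6.10), and any marker or member that separated by the same rule was read within its clusters. Pearson's r was tested with 100000 two-sided permutations and adjusted by Benjamini-Hochberg over all genes tested, in each set and for each marker, member or index as its own family. An index is the mean z-score of a list. Spearman's rho and limma were alternatives, as were a pseudocount of 0.1, median-of-ratios scaling, removal of the 20 genes with the largest share, a minimum mean of 0.1 TPM or none, and leaving out libraries. Neighbours in the order of levels were said to differ where the mean log2 ratio exceeded its SD. The members and lists were chosen with earlier results of these data known. Named genes were the members, Mki67, Chga, the 2 protein-coding genes most like each member in the larger set, the other BCL2 family genes, and of each further pathway list up to 3 with the largest r with Mki67 in the larger set among those called with the same sign in both sets. Some items that this rule or the marker lists cover are not reported here. The 4 libraries left out of the smaller set, the reading of Pmaip1 at a minimum mean of 0.1 TPM, and the levels given within each set were chosen after seeing the data. Gene positions came from GENCODE M21 (98.8% of genes matched) and promoters from RefSeq, which gave windows for 9 members. The permutation code was tested on simulated data. The tools were limma 3.58.1 in R 4.3.3, BLAST+ 2.17.0, and scikit-learn 1.9.0, scipy 1.17.1, pandas 2.3.3 and numpy 2.4.6 in Python 3.11.15.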

Additional observations from a re-analysis of the deposited data

How the results depend on the processing

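No paired analysis was possible because all mice belong to 1 group. The depth of each library is unknown beyond the minimum in the study's methods, so what it limits could not be measured. A direction that changes with the scaling cannot be read as a change per cell. Of the counts and levels recomputed under alternatives, 176 stayed close to their value and 53 moved. Of single members' r values, 216 kept their direction and their side of the threshold, 21 lost the call, 15 gained it and 26 changed sign. The cause of these changes was not tested, except where a filter changed how many genes were tested.

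With Mki67 in the 79 libraries 10653 genes were positive and 205 negative. These were 3237 and 2922 after median-of-ratios scaling and 4895 and 1200 without the top 20 genes, with 5 members positive in each case, and the negative genes were 652 with a minimum mean of 0.1 TPM and 1764 with none. The r of Bcl2 and Bid was -0.12 and -0.16 after median-of-ratios scaling, and that of Bid -0.066 without the top 20 genes.

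With Mki67 in the 36 libraries 3408 genes were positive and 3043 negative. After median-of-ratios scaling 5603 genes and 4 members were negative, with r of -0.0069 for Bcl2, -0.24 for Bcl2l11 and -0.26 for Bid. Without the top 20 genes 5251 genes were positive and 2 members negative. The median r was then 0.117 over all genes tested and -0.205 over the members. A minimum mean of 0.1 TPM gave 5645 positive genes, and no minimum gave 5811 positive and 8589 negative. Spearman's rho gave 2 negative members, where 27% of genes were negative, with -0.021 for Bid and -0.10 for Bbc3. Without the 2 most extreme libraries 4580 genes and 4 members were negative, with r of -0.031 for Bcl2, -0.10 for Bcl2l11, -0.22 for Bid and -0.19 for Bbc3. With a proliferation index in place of Mki67, 4 members were positive, where 26.9% of genes were, and 0 members and 264 genes were negative. The called members were Bbc3 (r = 0.77), Bax (0.56), Bid (0.55) and Bak1 (0.45). The r was 0.34 for Bcl2l1, 0.33 for Mcl1 and 0.32 for Bad, which were not called. Without W1118, W1050, W1915 and W1790 1 member was positive and 0 negative, where 25.2% of genes were positive and 20.6% negative, and r of Bak1 was 0.030.

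With Chga in the 72 libraries 162 genes were positive and 0 negative. Median-of-ratios scaling gave 315 and 593, removal of the top 20 genes gave 48 negative, and minimum means of 0.1 TPM and none gave 289 and 286 positive. A neuroendocrine index in place of Chga gave 9614 positive genes, 79 negative genes and 4 positive members. The median r with that index was 0.322 over all genes tested and 0.248 over the members. With Chga in the 36 libraries 1426 genes were positive and 3467 negative. Without the top 20 genes these were 3014 and 2275, with the neuroendocrine index 2259 and 5346, by Spearman's rho 274 and 15, with 0 members negative, and without the 2 most extreme libraries 433 and 366, with 2 members negative. Spearman's rho was 0.17 for Bax and 0.012 for Bid. Without W1118, W1050, W1915 and W1790, 23 genes and 0 members were negative, and 1368 genes and 1 member were positive. The r was then 0.13 for Bcl2l1, 0.26 for Mcl1, 0.058 for Bcl2l11, 0.54 for Bax, 0.40 for Bid and 0.29 for Bad.

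Rescaled without the top 20 genes, the medians were 6.29 TPM for Bcl2, 41.5 for Bcl2l1, 76.6 for Mcl1, 14.7 for Bcl2l11, 44.3 for Bax, 11.6 for Bak1, 10.7 for Bid, 6.0 for Bbc3 and 46 for Bad, with Bad then above Bax.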
